A study of Rattus norvegicus with 12 samples.

Results

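Anti-miR-182, an inhibitor of the microRNA of that name, was compared with placebo in rat kidneys taken 7 days after ischemia-reperfusion injury (IRI), in which blood flow to the kidney is stopped and then restored. The comparison rests on 6 of the 12 arrays of the series, 3 under anti-miR-182 and 3 under placebo, chosen by their titles, and covers all 18166 genes with 1 annotated symbol. The other 6 arrays, 3 of each treatment at day 2, entered the same fit and are used where the days are compared. All 4 groups were injured, no uninjured kidney is among the arrays analysed here, and strain, age, sex, length of ischemia, and dose and timing of the inhibitor are all details not given in the sources used here. Each title carries a different animal code, so each array stands for 1 animal, but replicate numbers below only name the kidneys and pair none of them. A description label calls the samples zero-hour biopsies, which goes against the days in the titles, and the titles were followed. Values are log2 signals, so a difference of 1 is a doubling, and every difference is anti-miR-182 minus placebo with its limma standard error (SE).

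A microRNA is a short RNA that pairs with messenger RNAs through its seed, the bases 2 to 8 from its 5′ end, and lowers their translation and stability. miR-182 is made from a cluster with miR-183 and miR-96, and an antisense inhibitor binds the mature strand and keeps it from its targets. After ischemia the proximal tubule, which depends on fatty acid oxidation, is damaged, loses its transporters and metabolic enzymes, and then regenerates, while macrophages and matrix-making fibroblasts accumulate in the interstitium. The mature sequences of the cluster are shown because the inhibitor is directed at miR-182 and the array has rows for all 3 genes. They are from RefSeq (GRCr8), lie on the minus strand of chromosome 4 at chr4:59752249-59752273, chr4:59755901-59755923 and chr4:59756106-59756127, and have the seed in capitals.
rno-miR-182: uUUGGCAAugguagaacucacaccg
rno-miR-96-5p: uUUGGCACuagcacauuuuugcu
rno-miR-183-5p: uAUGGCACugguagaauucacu
Each of these 3 seeds occurred in 1 of the 724 mature rat microRNAs of the RefSeq table, so the cluster members do not share a full seed.

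The row of the microRNA gene Mir182 read 5.63, 6.0 and 4.93 in the anti-miR-182 kidneys and 4.32, 3.97 and 4.75 in the placebo kidneys. All kidneys given the inhibitor lay above all placebo kidneys, by 1.18 ± 0.24 (limma, n = 3 per group, unadjusted p = 0.00022, adjusted p = 0.999). At day 2 the difference was 1.73, again with no overlap. Mir183 read 3.33, 3.21 and 3.12 under anti-miR-182 and 3.19, 2.97 and 2.86 under placebo, and Mir96 read 4.36, 4.74 and 4.33 against 4.55, 4.43 and 4.38. The groups overlapped for both of these neighbours. All 3 rows were dim, with none above the median gene at day 7 (6.338). Mir182 averaged 5.23 over the 12 arrays, under the lower quartile of all genes (5.469). The files do not say whether a microRNA row reads the mature strand, its precursor or other RNA of the locus, and an inhibitor need not change the amount of its target, so the row does not check the labels.

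**Figure D1:**
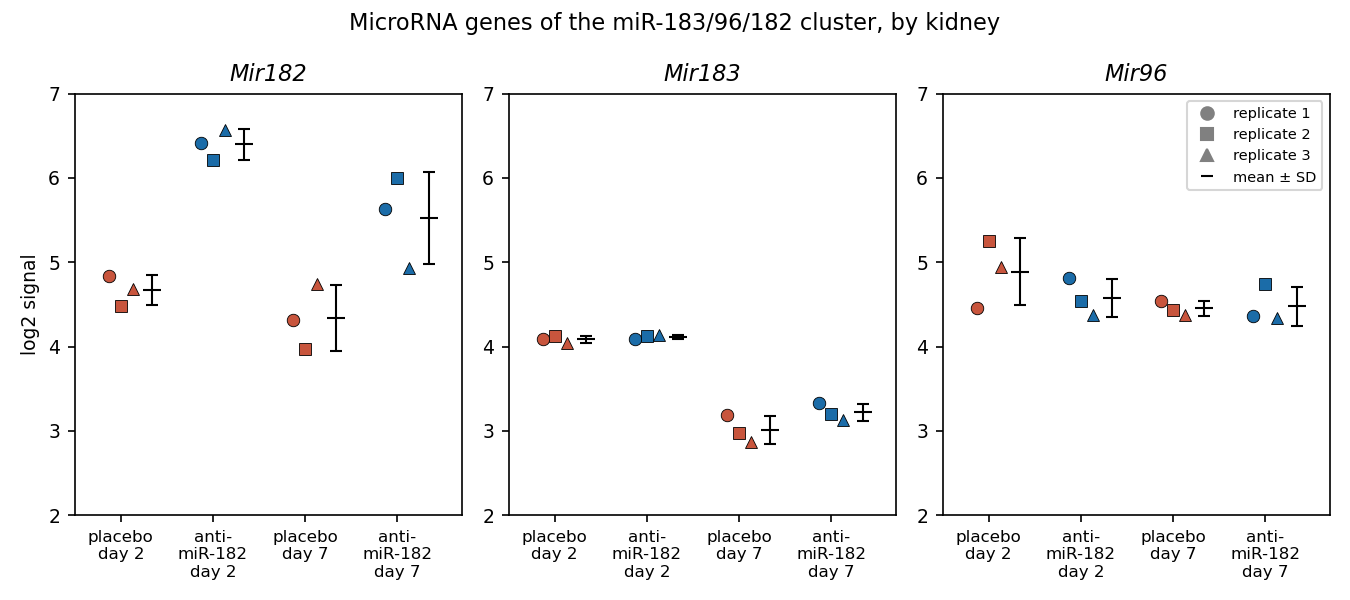
Log2 signal of the Mir182, Mir183 and Mir96 rows (vertical axis) in each kidney of the 4 groups (horizontal axis); symbols are replicates and the bar is the mean ± SD of 3 kidneys. The Mir182 row lay higher under anti-miR-182 on both days, by 1.73 at day 2 and 1.18 at day 7, while Mir183 and Mir96 overlapped between treatments at day 7. Levels of different days may carry normalization and are not compared.

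No gene passed the test at day 7: 0% of the 18166 genes had a limma adjusted p under 0.05, and the smallest adjusted p was 0.999. At an unadjusted p under 0.05, 292 genes (1.61%) were higher and 301 (1.66%) lower under anti-miR-182. In 636 genes (3.50%) all anti-miR-182 kidneys lay above all placebo kidneys, and in 682 (3.75%) all lay below. These shares are the background for the counts of members below that were made with all kidneys. Differences were small, with a median SE of 0.138, and exceeded 1 in 14 genes, 3 higher and 11 lower.

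Placebo kidneys differed from each other in more genes than anti-miR-182 kidneys did, and placebo replicate 2 stood farthest apart. Pairs of placebo kidneys differed by more than 1 in 153 to 241 genes, pairs of anti-miR-182 kidneys in 38 to 119, and pairs across treatments in 71 to 204. The SD exceeded 0.5 in 464 genes under placebo and in 219 under anti-miR-182. Placebo replicate 2 alone held 39 genes at least 1 above all 5 other kidneys, against 0 to 5 in each of the others, and set the leading principal component (27.9% of the variance). Placebo replicate 1 and anti-miR-182 replicate 2 lay at the ends of the next component (24.7%), and anti-miR-182 replicate 3 was the kidney with the lowest score for proximal tubule apical transporters. Kidney markers were read in every array, with Umod between 11.19 and 11.74 and Lrp2 between 10.96 and 11.32.

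Genes of the interstitial matrix lay lower on the median in the anti-miR-182 kidneys, with proteoglycans divided. The lists used for such statements were chosen with earlier results of these data known, 796 of their 902 entries were measured, and a list is described by its counts and its median difference beside a median of -0.00078 over all genes. Of 9 measured beaded, network and fibril-associated collagens 8 were lower and 1 higher, with a median of -0.316 and 3 without overlap of the groups. Without placebo replicate 2 that median was -0.222. Of 9 fibrillar collagens 6 were lower, 3 of them without overlap, with a median of -0.0378 that was -0.00147 without placebo replicate 2. None of these genes passed the adjusted test. In whole kidney RNA, fewer cells of a type and less RNA per cell cannot be told apart.

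Col1a1, which encodes the main chain of type I collagen, read 6.84, 6.64 and 6.82 under anti-miR-182 and 7.17, 7.81 and 7.12 under placebo. The lowest placebo kidney lay above the highest treated kidney, and the difference was -0.60 ± 0.18 (limma, n = 3 per group, unadjusted p = 0.0047, adjusted p = 0.999). Col3a1, its partner in loose interstitial fibres, read 7.49, 7.45 and 7.55 against 7.77, 8.42 and 7.84, again without overlap. For both, placebo replicate 2 held the highest value, and without it the differences were -0.38 for Col1a1 and -0.31 for Col3a1. Col1a2 read 7.18, 7.43 and 7.41 against 7.48, 8.14 and 7.46, so only a narrow gap separated its groups. The other 6 fibrillar collagens, such as Col5a1, Col5a2 and Col11a1, overlapped.

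Col14a1, a collagen that binds to the surface of fibrils, read 6.60, 6.70 and 7.02 under anti-miR-182 and 7.09, 8.75 and 7.37 under placebo. The difference was -0.97 ± 0.30 with all kidneys and -0.46 without placebo replicate 2. The type VI collagen chains Col6a2 (7.07, 7.14 and 7.08 against 7.37, 8.30 and 7.48) and Col6a3 (7.96, 7.70 and 7.94 against 8.21, 8.51 and 8.45) also did not overlap. Col6a2 differed by -0.62 ± 0.19, and by -0.32 without placebo replicate 2. Col8a2 was the single list member on the higher side, at 0.03 ± 0.18.

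Among matricellular and elastic fibre proteins, 14 of 20 were lower and 3 did not overlap. The median of -0.0867 was -0.0832 without placebo replicate 2, with 12 of 20 lower. Postn, a matricellular protein of activated fibroblasts, read 7.0, 7.16 and 7.03 under anti-miR-182 but 7.0, 10.36 and 8.71 under placebo. Placebo replicate 1 was thus at the level of the treated kidneys, the groups overlapped, and the difference of -1.63 ± 0.55 was -0.80 without placebo replicate 2 and -2.47 without placebo replicate 1. Fbn1, the fibrillin of microfibrils, behaved more evenly, with 8.07, 7.98 and 8.39 against 8.74, 8.88 and 8.47. Fibronectin (Fn1) read 9.48, 9.53 and 9.86 against 10.08, 10.57 and 10.11, a difference of -0.63 ± 0.27 without overlap. The proteoglycan versican (Vcan) read 6.38, 6.47 and 6.90 against 7.11, 7.26 and 6.97, while the abundant proteoglycan decorin (Dcn) overlapped at -0.14 ± 0.17. Their list of 9 collagen-binding proteoglycans was divided, with 4 higher (up to 0.287), 5 lower and 1 without overlap. Its median of -0.0934 was 0.0316 without the dimmest 50% of genes. Basement membrane genes showed a smaller shift of the same sign, with 11 of 16 lower, a median of -0.103 and 3 without overlap (Col4a2, Lamb2 and Agrn).

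Matrix turnover genes followed, with 19 of 22 proteases and inhibitors lower and a median of -0.122. Without placebo replicate 2 these were 14 of 22 and -0.0228. The metalloproteinase gene Adamts12 read 6.71, 6.72 and 7.02 against 7.15, 7.49 and 7.37, a difference of -0.52 ± 0.14. It was the single member without overlap. The macrophage elastase Mmp12 read 6.24, 6.38 and 6.05 against 5.84, 8.64 and 7.46, with placebo replicate 1 below every treated kidney. Of 17 genes for collagen processing and crosslinking, 11 were lower (median -0.0846, and -0.0348 without anti-miR-182 replicate 1), and the lysyl hydroxylase Plod1 did not overlap (-0.32 ± 0.13).

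Fibroblast and myofibroblast genes were lower in 14 of 16 cases, with a median of -0.232 that was -0.127 without placebo replicate 2. Beta-actin (Actb) read 9.25, 9.56 and 9.33 under anti-miR-182 and 9.81, 9.89 and 9.99 under placebo, a difference of -0.51 ± 0.12 (limma, n = 3 per group, unadjusted p = 0.00072, adjusted p = 0.999). Its placebo kidneys were close together, so no single kidney set the value, and leaving out any kidney gave -0.45 to -0.60. Actb was lower without overlap at day 2 too (-0.179), so its direction was not particular to day 7. Ddr2, a collagen receptor, also did not overlap at day 7, and Pdgfra, Pdgfrb and Thy1 overlapped at -0.22, -0.23 and -0.21.

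Among 25 fibrogenic ligands, receptors and antagonists, 17 were lower and 3 did not overlap. The median of -0.0548 was -0.00253 without placebo replicate 2 and turned to 0.036, with 14 genes higher and 11 lower, without anti-miR-182 replicate 1. Igf1, a growth factor, read 7.78, 8.33 and 8.12 under anti-miR-182 and 8.85, 9.64 and 8.63 under placebo, a difference of -0.96 ± 0.23 (limma, n = 3 per group, unadjusted p = 0.00079, adjusted p = 0.999). The secreted Wnt antagonist Sfrp4 read 5.74, 5.51 and 5.34 against 6.01, 6.41 and 7.01, with placebo replicate 3 rather than replicate 2 on top. Dkk2, another secreted Wnt regulator, read 8.30, 8.46 and 8.57 against 8.71, 8.90 and 8.93. Leaving out any kidney kept Igf1 between -0.67 and -1.17 and Sfrp4 between -0.68 and -1.18. The ligand Tgfb1 itself overlapped, at -0.16 ± 0.15.

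**Figure D2:**
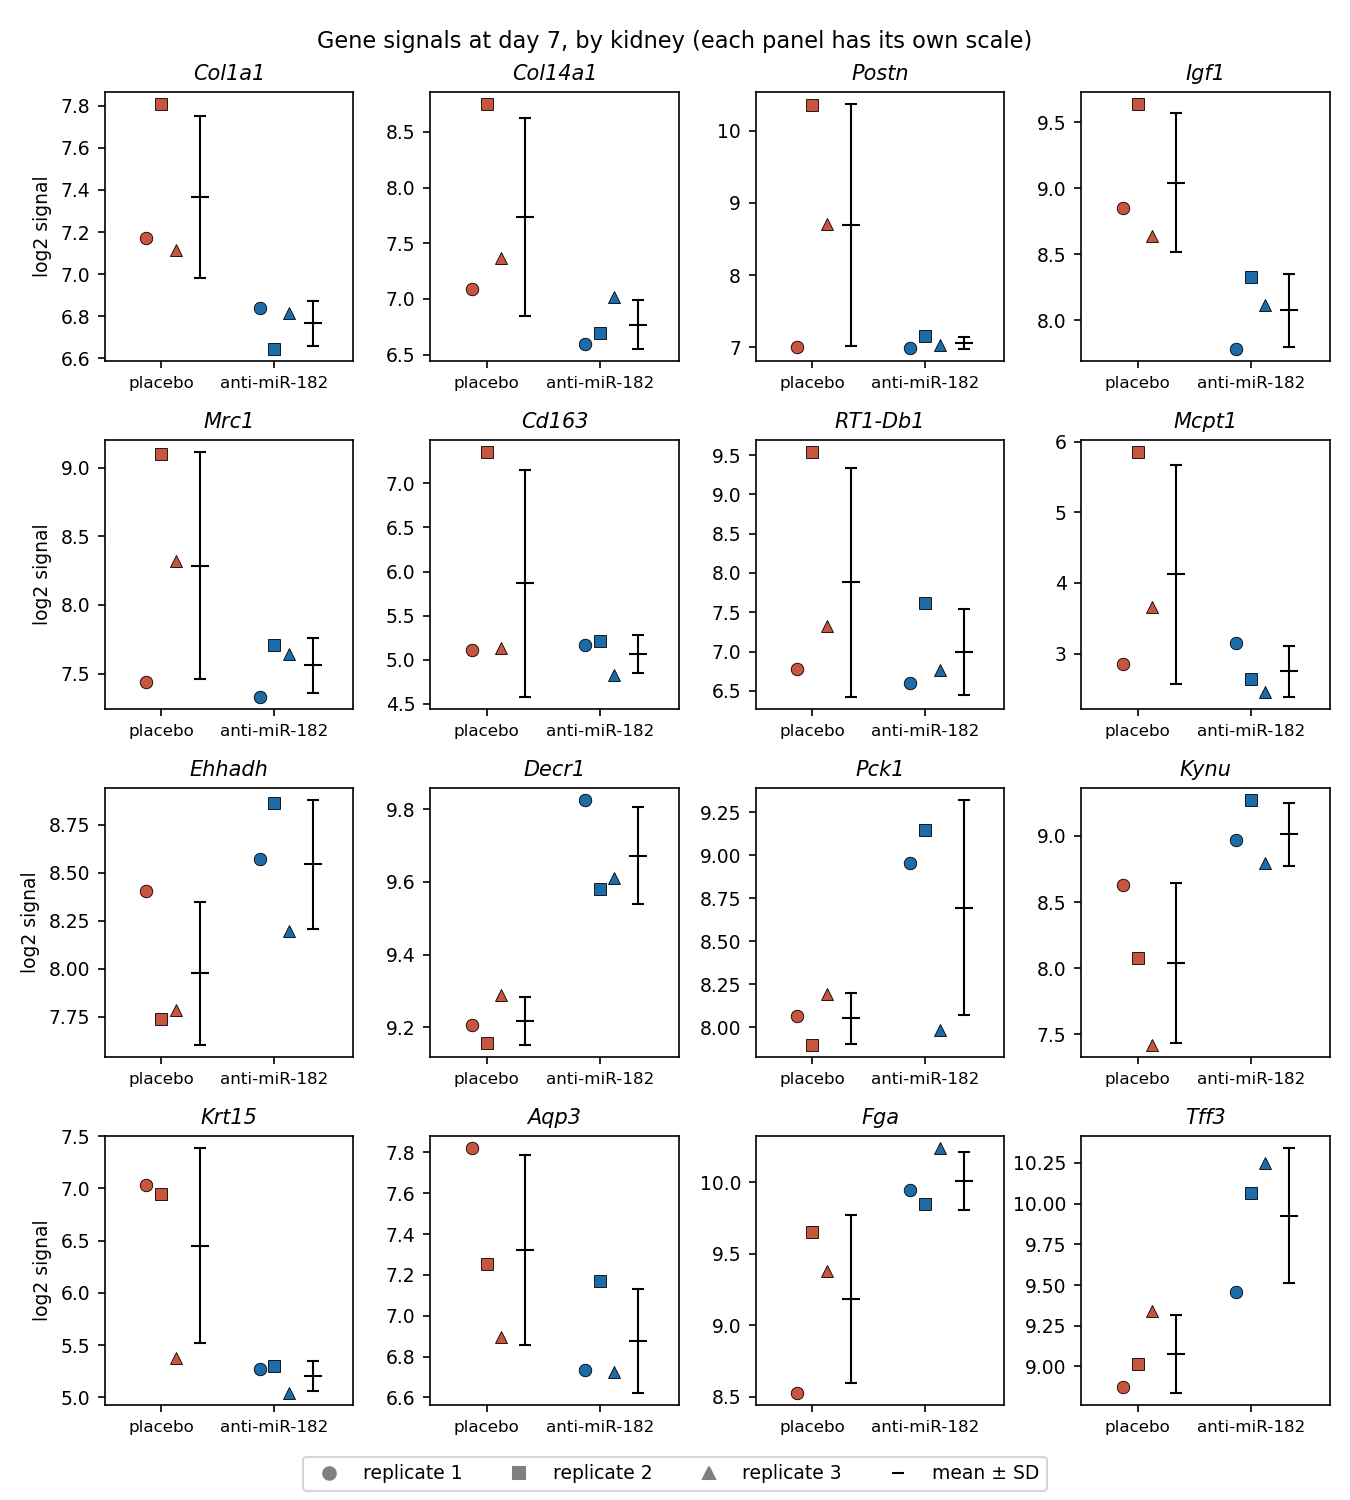
Log2 signal (vertical axis, own scale in each panel) of 16 genes in the placebo and anti-miR-182 kidneys of day 7 (horizontal axis); symbols are replicates and the bar is the mean ± SD of 3 kidneys. Col1a1, Col14a1 and Igf1 do not overlap, though placebo replicate 2 stands far above the rest for Col14a1. Cd163 and RT1-Db1 are set apart by placebo replicate 2 alone. Mcpt1 is highest in that kidney too, but its difference stays between -2.01 and -0.51 over the alternatives. Postn and Mrc1 are above every treated kidney in placebo replicates 2 and 3 but not in replicate 1. Decr1, Kynu, Fga and Tff3 lie higher in every anti-miR-182 kidney.

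Macrophage, MHC class II and T cell genes lay lower on the median, and the medians depended on 1 placebo kidney. Of 19 genes of macrophage identity 15 were lower (median -0.226), of 16 scavenger and repair receptors 15 (-0.19), of 10 genes of MHC class II presentation 8 (-0.335), and of 14 T cell genes 12 (-0.216). Without placebo replicate 2 these medians were 0.0234, -0.0279, -0.0601 and -0.0319. Placebo replicate 1 had the lowest score of all 6 kidneys in each of these 4 lists and placebo replicate 2 the highest. B and plasma cell genes did not share the direction, with 5 of 8 higher (median 0.0535) and scores higher under anti-miR-182 without overlap. Natural killer cell genes were divided, with 5 of 9 higher (median 0.0219).

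Mrc1, the mannose receptor of repair macrophages, read 7.33, 7.71 and 7.64 under anti-miR-182 and 7.44, 9.10 and 8.32 under placebo. Placebo replicate 1 lay within the range of the treated kidneys, and the difference of -0.72 ± 0.28 was -0.32 without placebo replicate 2. The haemoglobin scavenger receptor Cd163 was near 5 in 5 kidneys, from 4.82 to 5.22, and 7.35 in placebo replicate 2. The class II gene RT1-Db1 read 6.59, 7.62 and 6.76 against 6.78, 9.54 and 7.33, and the T cell receptor subunit Cd3d 6.16, 6.31 and 6.20 against 5.99, 8.11 and 6.80. Without placebo replicate 2 the difference was -0.06 for both Cd163 and RT1-Db1. Genes less tied to that kidney were Ciita, the master activator of class II genes (5.73, 5.56 and 5.40 against 5.97, 6.0 and 5.88), and Stab1, a scavenger receptor (-0.28 ± 0.11), neither of which overlapped. The Fc receptor Fcgr3a went the other way, at 7.04, 7.0 and 7.22 against 6.83, 6.62 and 6.58.

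The 39 genes that placebo replicate 2 held at least 1 above all others were looked up after their values were seen. They include the eosinophil-attracting chemokines Ccl11 (8.16, against 4.20 to 4.64 in the other kidneys) and Ccl24 (9.03, against 6.04 to 6.24), and the chemokine receptor Ccr3 to which both bind (4.70, against 2.90 to 3.11). The set also holds Clca1 (9.34, against 4.52 to 5.11), a goblet cell product known from allergic airways, Retnlg (8.98, against 3.12 to 3.79), a resistin-like gene of myeloid cells, and the mast cell protease Mcpt1 (5.85, against 2.46 to 3.66). The arachidonate lipoxygenase Alox5 (7.58, against 5.85 to 6.01), the lectin Clec10a (8.60, against 6.43 to 6.66) and Ccl17 (7.46, against 5.08 to 5.98) belong to it too. So do the matrix genes Col14a1 and Postn and the metalloproteinase genes Mmp7 and Mmp12. The mast cell list also had its highest score in that kidney (-0.983, against -1.481 to -1.252 elsewhere). Of its 8 measured genes, Mcpt1 and the carboxypeptidase Cpa3 (5.60, against 4.26 to 4.91) were highest there, while the tryptases Tpsab1 and Tpsb2 and the receptor subunit Ms4a2 were not (5.58, 5.54 and 4.09). The same kidney held the highest score in macrophage identity, scavenger and repair receptors, MHC class II presentation and T cell genes. It was also highest in fibrillar and other interstitial collagens and in mitosis. Values without it are given above for several matrix lists and genes, but not for all of them.

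Interferon-stimulated genes, which encode antiviral effectors, were lower in 21 of 26 cases (median -0.124). Without placebo replicate 2 these were 14 of 26 and -0.0296. The antiviral synthetase Oas1a read 6.20, 6.30 and 6.39 under anti-miR-182 and 6.94, 6.55 and 7.0 under placebo, a difference of -0.53 ± 0.14. Rsad2, Ifi27 and Mx2 also lay lower without overlap, and Ifi44l lay higher without overlap. Here placebo replicates 1 and 2 had the higher scores (0.768 and 0.767), and placebo replicate 3 (0.527) lay within the treated range of 0.43 to 0.657. At day 2 the list pointed the other way, with 21 of 26 genes higher under anti-miR-182.

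**Figure D3:**
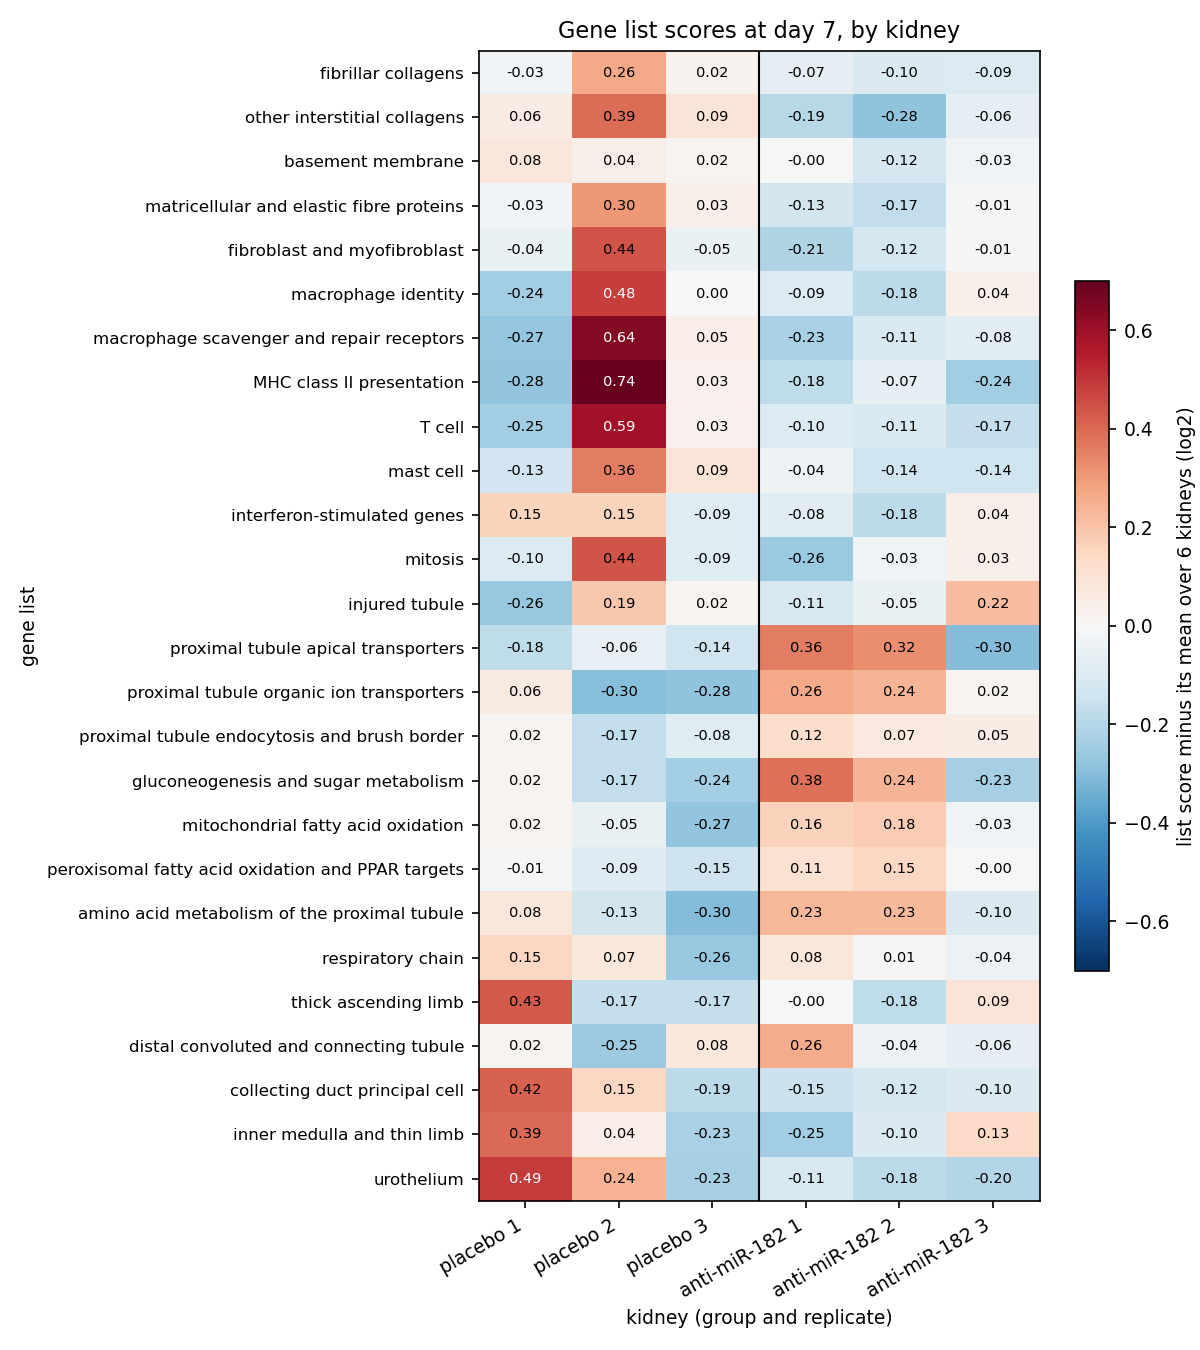
Score of 26 gene lists (rows) in the 6 kidneys of day 7 (columns), as the mean log2 signal of a list's genes minus that of all genes on the array, shown minus the list's mean over the 6 kidneys; red is higher and blue lower. Placebo replicate 2 is high in the immune and matrix rows, placebo replicate 1 in the collecting duct, medulla and urothelium rows, and anti-miR-182 replicate 3 is low in apical transporters.

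Genes of proximal tubule metabolism lay higher in the anti-miR-182 kidneys, with and without placebo replicate 2. Of 24 genes of mitochondrial fatty acid oxidation 21 were higher, with a median of 0.207, and of 26 genes of amino acid metabolism 25 were higher, with a median of 0.177. For gluconeogenesis and sugar metabolism 11 of 13 were higher (median 0.262). Without placebo replicate 2 the medians of oxidation, amino acid metabolism and gluconeogenesis were 0.222, 0.158 and 0.25. Other kidneys moved them further: without placebo replicate 3 the first 2 were 0.116 and 0.088, and gluconeogenesis was 0.0873 without anti-miR-182 replicate 1 and 0.484 without anti-miR-182 replicate 3. None of these genes passed the adjusted test, while the groups of 5 fatty acid oxidation genes did not overlap on the higher side and 1 on the lower. For amino acid metabolism 2 of 26 genes did not overlap, and for gluconeogenesis 0 of 13, beside 7.26% of all genes.

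Peroxisomal fatty acid oxidation, which shortens very long chains, was 1 of 8 lists out of 50 whose scores did not overlap between groups. Its score was 1.782, 1.823 and 1.674 under anti-miR-182 and 1.666, 1.585 and 1.53 under placebo, and 13 of 21 genes were higher. Ehhadh, its bifunctional enzyme, read 8.57, 8.86 and 8.20 against 8.40, 7.74 and 7.78, so placebo replicate 1 lay above anti-miR-182 replicate 3. The difference was 0.57 ± 0.22 (limma, n = 3 per group, unadjusted p = 0.021, adjusted p = 0.999). The groups did not overlap for Ech1 (0.36 ± 0.15), Crot (0.25 ± 0.11), Acaa1a (0.25 ± 0.11), Abcd3 (0.37 ± 0.17) and Hsd17b4 (0.27 ± 0.13), which import, shorten or export fatty acids. Cyp4a1, a fatty acid hydroxylase driven by PPAR alpha, read 9.51, 10.14 and 9.27 against 8.23, 9.28 and 9.11.

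In mitochondria, the dienoyl reductase Decr1 read 9.82, 9.58 and 9.61 under anti-miR-182 and 9.21, 9.16 and 9.29 under placebo, a difference of 0.45 ± 0.21. Every treated kidney was above every placebo kidney, and leaving out any kidney gave 0.38 to 0.50. Acadl, Acadvl, Eci2 and Etfa lay higher in the same way, while the branched-chain dehydrogenase Acadsb lay lower (8.46, 8.25 and 8.61 against 8.96, 9.24 and 8.90). Genes of the respiratory chain gave a median of 0.0268 with 16 of 24 higher and no member without overlap. Placebo replicate 3 had their lowest score, and without it the list turned, with 21 of 24 lower and a median of -0.0787. Of these genes 8 did not overlap then, at a setting where 3251 of all 18166 genes did not overlap.

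Pck1, the rate-setting enzyme of gluconeogenesis, read 8.96, 9.15 and 7.99 under anti-miR-182 and 8.07, 7.90 and 8.19 under placebo. The treated group was split, with replicates 1 and 2 above all placebo kidneys and replicate 3 among them, and the difference of 0.64 ± 0.29 was 1.0 without anti-miR-182 replicate 3. Fructose bisphosphatase (Fbp1) showed a like order, with 9.47, 9.25 and 8.54 against 8.79, 8.47 and 8.23. Kynu, which breaks down kynurenine from tryptophan, read 8.97, 9.27 and 8.80 against 8.63, 8.08 and 7.42, a difference of 0.97 ± 0.29 without overlap. Dmgdh, an enzyme of choline breakdown, read 8.24, 8.36 and 8.03 against 7.91, 7.67 and 7.51.

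Proximal tubule transporters were higher in nearly every member but unevenly across kidneys. Of 27 apical transporters 26 were higher (median 0.254), of 16 organic ion transporters 15 (0.349), and of 14 endocytic and brush border genes all 14 (0.104). The apical score was 2.601 and 2.565 in anti-miR-182 replicates 1 and 2, 1.938 in replicate 3, and 2.063 to 2.184 under placebo. The apical median was 0.509 without anti-miR-182 replicate 3, 0.162 without replicate 1 and 0.114 without replicate 2. The endocytic median was 0.227 without anti-miR-182 replicate 3, with 11 of 14 higher.

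That kidney was low in transporters of the early proximal tubule. The glucose transporter Slc5a2 read 9.38 and 8.93 in anti-miR-182 replicates 1 and 2, 6.98 in replicate 3, and 8.56, 9.21 and 8.85 under placebo. Its difference of -0.44 was 0.28 without that kidney. The amino acid transporter Slc6a19 (7.88, 8.04 and 6.41 against 6.82, 6.94 and 6.59), the organic anion transporter Slc22a6 (9.69, 9.27 and 8.10 against 8.43, 8.48 and 8.34) and the lactate transporter Slc5a12 (11.23, 11.01 and 8.92 against 10.20, 10.60 and 9.66) had the same lowest kidney. Slc7a13, a transporter of the last proximal segment, did not share this order, with 11.74, 11.82 and 12.19 against 12.05, 11.11 and 10.94. The dicarboxylate transporter Slc13a2 was among the members without overlap, at 7.90, 7.74 and 7.35 against 7.20, 7.27 and 7.27. Slc5a1 and Slc5a8 did not overlap either.

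Among the 10 largest differences toward higher signal, counted over genes without overlap and above the median level, were enzymes of several pathways. Vnn1, a pantetheinase, read 8.15, 8.94 and 7.85 under anti-miR-182 and 6.85, 7.59 and 7.51 under placebo (1.0 ± 0.28). Adtrp, a hydrolase of fatty acid esters, read 9.01, 9.60 and 8.57 against 8.22, 8.07 and 8.0 (0.96 ± 0.21). Upp2, a uridine phosphorylase, read 6.44, 6.85 and 7.05 against 6.23, 6.01 and 5.64 (0.82 ± 0.22). The glutamate receptor subunit Grik2 differed by 1.24 ± 0.47, but placebo replicate 1 alone was low (4.78, with 6.90 to 7.64 elsewhere), and without it the difference was 0.45. On the lower side Fam111a, an antiviral protease, differed by -1.22 ± 0.61, with placebo replicate 1 at 9.06 and the other kidneys at 6.11 to 7.18.

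**Figure D4:**
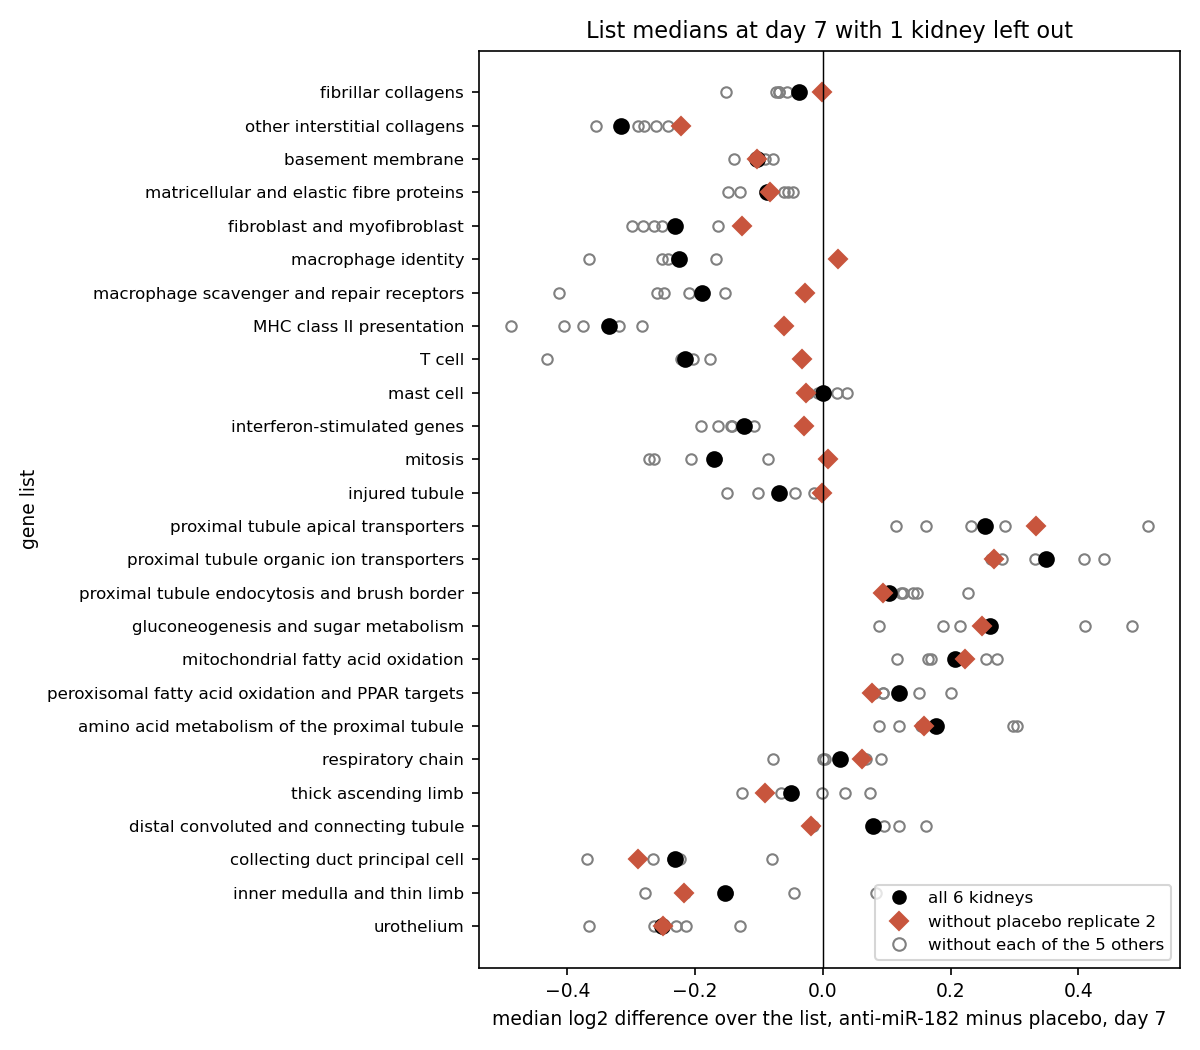
Median log2 difference over the genes of each list, anti-miR-182 minus placebo at day 7 (horizontal axis), for 26 lists (vertical axis); black is all 6 kidneys, red diamonds are without placebo replicate 2 and open circles are without each of the 5 other kidneys. The immune lists move to near 0 without placebo replicate 2 (macrophage identity from -0.226 to 0.0234), while the proximal tubule transporter lists stay on the higher side whichever kidney is left out and the respiratory chain falls to -0.0787 without placebo replicate 3.

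Genes of collecting duct principal cells and of the urothelium, which lines the renal pelvis, were lower under anti-miR-182 than in placebo replicates 1 and 2, but not than in placebo replicate 3. Of 14 principal cell genes 12 were lower (median -0.232), and of 13 urothelial genes 10 (median -0.252). The principal cell score was 1.231, 0.962 and 0.63 in placebo replicates 1 to 3 and 0.663 to 0.716 under anti-miR-182. The urothelial score was -0.05, -0.294 and -0.769 against -0.742 to -0.649, so in both lists placebo replicate 3 lay below all treated kidneys. Without placebo replicate 1 the medians were -0.0803 and -0.129. Intercalated cells, the other cell type of the collecting duct, did not share this order, with 6 of 14 genes higher and 8 lower (median -0.0315) and scores of 1.898, 1.494 and 1.569 under placebo against 1.577 to 1.771.

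The basal keratin Krt15 read 5.27, 5.30 and 5.04 under anti-miR-182 and 7.03, 6.95 and 5.38 under placebo, a difference of -1.25 ± 0.31 (limma, n = 3 per group, unadjusted p = 0.0013, adjusted p = 0.999). The uroplakin Upk1b (5.41, 5.47 and 5.58 against 7.17, 7.33 and 5.06) and the urea transporter of the inner medulla Slc14a2 (5.89, 6.17 and 5.90 against 7.20, 7.11 and 5.68) had the same placebo kidneys on top. Without placebo replicate 3 these 3 genes passed the adjusted test, at -1.78 for Krt15 (limma adjusted p = 0.000109), -1.76 for Upk1b (adjusted p = 0.000655) and -1.17 for Slc14a2 (adjusted p = 0.0197). They passed with no other kidney left out. Placebo replicate 3 was the placebo kidney nearest the treated ones, so these passes follow from the kidney dropped and do not test the treatment. Over the alternatives the smallest differences were -0.874 for Krt15, -0.63 for Upk1b and -0.363 for Slc14a2. The water channel Aqp3 (6.73, 7.17 and 6.73 against 7.82, 7.25 and 6.90) and the sodium pump regulator Fxyd4 (8.36, 8.72 and 8.77 against 10.05, 9.35 and 7.99) showed a like order. Other uroplakins did not: Upk3a read 6.42, 6.33 and 6.32 against 6.35, 6.16 and 6.03. The share of medulla and pelvis in the kidney pieces is not given, and its part in these differences was not tested.

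Genes that injured tubules switch on gave no common direction with all kidneys, with 13 of 31 higher and a median of -0.0686. That median was -0.00181 without placebo replicate 2. Placebo replicate 1 had the lowest score of the list (2.111), and without it 23 of 31 genes were lower, with a median of -0.15. At that setting 8 members were lower and 3 higher without overlap. Of all 18166 genes, 3364 did not overlap then, where fewer kidneys have to be separated. With only the animals numbered below 90, 26 of 31 were lower (median -0.205). That setting leaves out placebo replicate 1 and also anti-miR-182 replicate 3, the kidney with the highest score (2.59). Tff3, a trefoil peptide, read 9.46, 10.07 and 10.25 under anti-miR-182 and 8.87, 9.02 and 9.34 under placebo, a difference of 0.85 ± 0.19 (limma, n = 3 per group, unadjusted p = 0.00063, adjusted p = 0.999). The fibrinogen chains Fga (9.94, 9.85 and 10.24 against 8.53, 9.65 and 9.38) and Fgb (9.25, 9.05 and 9.51 against 7.76, 8.88 and 8.55) also lay higher without overlap. The injury markers Havcr1 (10.69, 11.01 and 11.31 against 9.78, 10.81 and 11.14) and Lcn2 (11.03, 10.90 and 11.26 against 9.65, 11.28 and 10.96) overlapped. In these 5 injury genes, Tff3 included, placebo replicate 1 was the lowest kidney, and it also held complement C3 at 6.91, against 8.36 to 9.43 elsewhere. Without that kidney the differences were 0.49 for Fga, 0.55 for Fgb, 0.03 for Havcr1 and -0.05 for Lcn2, against 0.82, 0.87, 0.43 and 0.44 with it. S100a6, a calcium-binding protein of the same list, lay on the lower side at -0.61 ± 0.23.

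Mitosis genes were lower in 23 of 25 cases, with a median of -0.171 that was 0.00863 without placebo replicate 2. Ccna2, cyclin A2, was the single member without overlap and read 6.75, 6.80 and 7.06 under anti-miR-182 and 7.23, 7.59 and 7.20 under placebo. Mki67, the proliferation marker, overlapped at -0.26 ± 0.21.

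Genes reported elsewhere as miR-182 targets were divided, with 9 of 22 higher and 13 lower and a median of -0.0357, which was 0.00029 without placebo replicate 3. Foxo1, a transcription factor of stress and metabolism, read 7.82, 7.91 and 7.88 under anti-miR-182 and 7.56, 7.57 and 7.75 under placebo, without overlap but at 0.24 ± 0.12. Its relative Foxo3 differed by -0.04. The translation inhibitor Pdcd4 went the other way, with 9.73, 9.60 and 9.84 against 10.10, 10.31 and 9.93, as did the actin regulator Cttn. Genes induced by FOXO factors had 13 of 25 higher, a median of 0.0342 (-0.0379 without anti-miR-182 replicate 3) and none without overlap.

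The treatment differences of the 2 days were compared in the same fit. No gene passed for the difference between days (0% of 18166, limma adjusted p under 0.05), and the smallest adjusted p was 0.284, for Slc9a4. Slc9a4, a sodium-proton exchanger, read 7.21, 7.05 and 7.05 under anti-miR-182 at day 7 against 7.73, 7.45 and 7.69, and 7.89, 7.92 and 7.80 at day 2 against 7.29, 7.43 and 7.45. It was thus lower than placebo at day 7 (-0.52) and higher at day 2 (0.48), in every kidney. Fga was 0.82 higher at day 7 and 0.82 lower at day 2, where it read 8.80, 9.18 and 8.67 against 9.65, 9.75 and 9.71. Over all genes 53% had the same sign on both days, and of the genes without overlap on both days 53 were higher and 29 lower on both, while 39 were lower at day 7 and higher at day 2 and 13 the reverse.

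At day 2 the differences were 0.07 for Col1a1, 0.14 for Igf1 and 0.03 for Fbn1. The matrix lists did not share a direction there, with day 2 medians of 0.0245 for fibrillar collagens, 0.0363 for other interstitial collagens and 0.0401 for proteases and inhibitors, but -0.0505 for matricellular proteins, -0.108 for fibroblast and myofibroblast genes and -0.116 for collagen processing, where 14 of 17 genes were lower. The difference between days was -1.10 ± 0.32 for Igf1 (limma adjusted p = 0.999), so a change with time was not shown. Mitosis genes lay lower on both days, with 24 of 25 at day 2, and Ccna2 did not overlap on either day. At day 7 this rested on placebo replicate 2, without which 12 of 25 were lower (median 0.00863). For fatty acid oxidation the day 2 medians were 0.0132 in mitochondria and -0.0196 in peroxisomes.

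**Figure D5:**
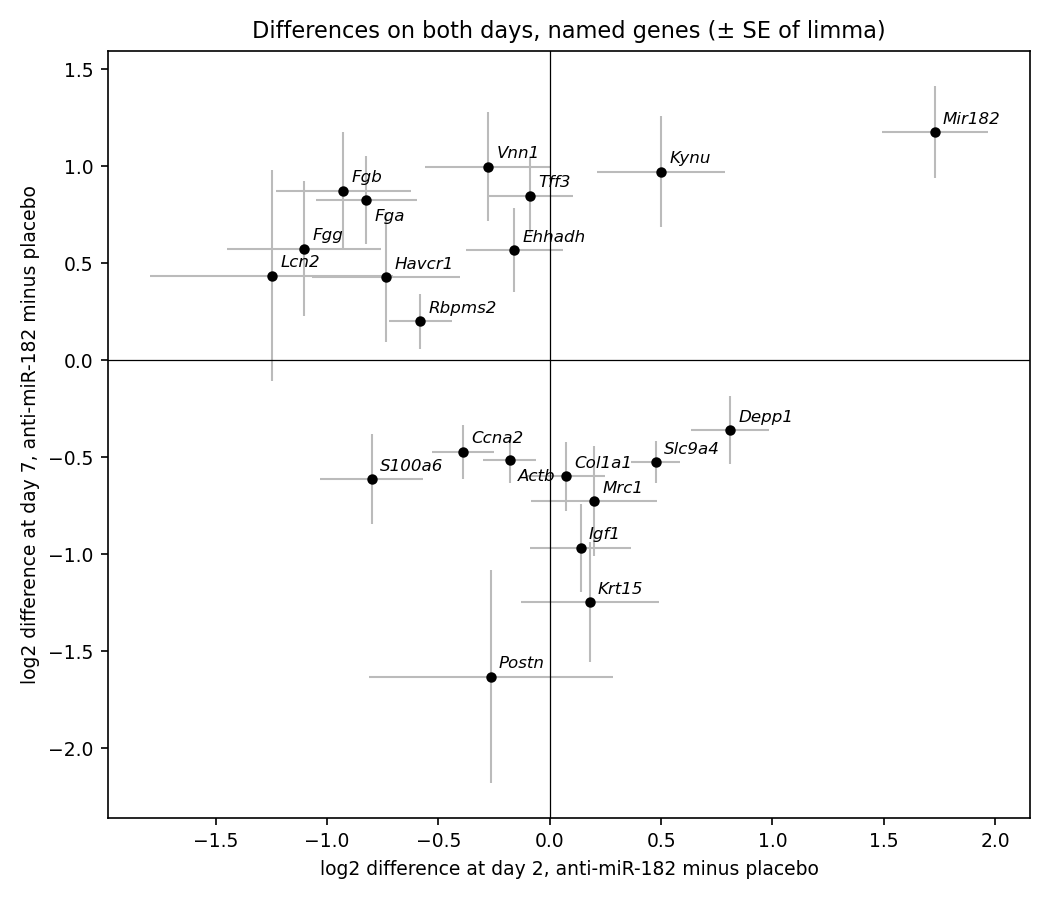
Log2 difference, anti-miR-182 minus placebo, at day 2 (horizontal axis) and day 7 (vertical axis) for 21 named genes; bars are the limma SE. Mir182 is higher on both days, Slc9a4 and Depp1 are higher at day 2 and lower at day 7, and the fibrinogen chains, Lcn2 and Havcr1 are lower at day 2 and higher at day 7. Without placebo replicate 1 the day 7 values of Lcn2 and Havcr1 are -0.05 and 0.03.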

How the data were processed

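The 6 arrays of day 7 and the 6 of day 2 measured RNA of rat kidney, amplified from 200 ng of total RNA per the labels' protocols. The deposited values are log2 signals made by the authors with RMA, per the submitters' processing notes, which subtracts background, puts arrays on a common scale and summarises the probes of a row. Its version and whether both days were normalized together are points not given in the sources used here. Of 36685 rows, 18511 had 1 gene symbol, 575 had several and 17599 were not listed in the annotation. Symbols of 18472 rows were found in RefSeq and 0 were updated. For the 291 genes with several rows the row with the highest mean was kept, which left 18166 genes with no filter on dim genes. The 190 rows without day 2 values were left out.

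Limma 3.58.1 in R 4.3.3 (lmFit, eBayes) fitted 4 group means over 12 arrays, and p-values were Benjamini-Hochberg adjusted over all genes. Simulated data with 200 altered genes were used to test the fit. Groups were said not to overlap when all 3 arrays of a group lay on one side of the other 3. The score of a list on an array is its genes' mean log2 less the mean over all genes there. The members and the 50 lists were chosen with earlier results of these data known, so lists carry no p-value. Named genes were fixed markers, list members with the smallest p, the highest level or a sign against their list, the 10 largest differences in each direction without overlap, the 10 largest spreads in each group, and the genes with the smallest p between days. Genes that stood out in 1 kidney, and a few list members beside them, were picked after their values were seen. Alternatives changed the fit, weights, filters, scaling, rows, animal number above or below 90 and the arrays used. Array number limits the precision.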

Additional observations from a re-analysis of the deposited data

Results flagged for a closer look

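For 7 of the named genes, all 3 anti-miR-182 kidneys lay on one side of all 3 placebo kidneys at day 7 and on the other side at day 2. Over all 18166 genes, 39 were lower at day 7 and higher at day 2 in this way, and 13 the reverse. Genes with the smallest p between days were among those named by rule, so the 7 are no sign that reversals are frequent. The values below are the day 7 difference minus the day 2 difference, in log2 units with the limma SE, and none passed the adjusted test. Slc9a4, a sodium-proton exchanger, gave -1.0 ± 0.16 (adjusted p = 0.284). Fga, a fibrinogen chain, gave 1.65 ± 0.32 (adjusted p = 0.919). The adjusted p was 0.999 for the other five. Among these, Rbpms2, an RNA-binding protein, gave 0.781 ± 0.198, with 8.15, 8.21 and 7.66 under anti-miR-182 and 8.71, 8.61 and 8.45 under placebo at day 2. Cdkn2b, a cell cycle inhibitor, gave -0.557 ± 0.154, and the scavenger receptor Stab1 gave -0.418 ± 0.153. The low-signal genes Gtpbp4 and Pphln1-ps1 gave 0.585 ± 0.135 and -0.686 ± 0.155.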

How the results depend on the processing

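No paired analysis was possible because the labels give no replicate numbers. With all 6 kidneys 0 genes were called, so no call could be lost; of the day 7 differences of the 115 genes named here, recomputed under each alternative, 1875 kept their direction and stayed short of the threshold, 3 passed it and 31 changed sign. With 1 kidney left out in turn, 9545 of all 18166 genes changed sign at least once. The named genes were chosen partly for small p or for groups without overlap, and the latter cannot change sign in this way. Their lower share is therefore no measure of stability. Of the 115 named genes, 13 changed sign at least once. Their differences ranged from -0.843 to 0.0163 for Alox5, -0.429 to 0.83 for C3, -0.888 to 0.0136 for Ccr3, -0.964 to 0.119 for Clec10a, -0.0817 to 0.0688 for Col5a1, -0.0839 to 0.162 for Col8a2, -0.0528 to 0.762 for Lcn2, -0.107 to 0.098 for Mir96, -2.47 to 0.463 for Retnlg, -0.19 to 0.965 for Slc5a12, -0.919 to 0.279 for Slc5a2, -0.074 to 0.087 for Tpsab1 and -0.0878 to 0.179 for Umod. With only the animals numbered below 90, the sign changed for C3 (-0.49), Havcr1 (-0.126), Lcn2 (-0.151), Slc5a2 (0.125) and Tpsab1 (-0.0189), and with array weights for Col5a1 (0.0127), Mir96 (-0.00817) and Umod (-0.00022). Of the 50 list medians, 18 changed sign with at least 1 kidney left out. Macrophage identity went from -0.226 to 0.0234, chemokines from -0.129 to 0.0552 and mitosis from -0.171 to 0.00863 without placebo replicate 2, and the inner medulla list from -0.153 to 0.0838 without placebo replicate 1. Without 1 kidney in turn, 0 to 3 genes passed the adjusted test: C3h15orf48 (-1.144, limma adjusted p = 0.00339) without placebo replicate 1, and Krt15, Slc14a2 and Upk1b without placebo replicate 3. For the difference between days 0 to 1 passed, Krt15 (-1.962, limma adjusted p = 0.00119) without placebo replicate 3. The 593 genes at an unadjusted p under 0.05 became 391 without the dimmest 25% of genes, 224 without the dimmest 50% and 1208 over every row. The 1318 genes without overlap became 644 without the dimmest 50%, and 2690 to 3639 with 1 kidney left out, where fewer kidneys have to be separated. The median of other interstitial collagens was -0.527 without the dimmest 50%. With only the animals numbered below 90, which leaves out anti-miR-182 replicate 3 and placebo replicate 1, gluconeogenesis gave 0.632 and peroxisomal fatty acid oxidation 0.208. With 1 kidney left out, the latter ranged from 0.0766 to 0.201 and mitosis from -0.272 to 0.00863. The number of arrays, 3 a group, limits the precision of every difference.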
